A study of Mus musculus with 556 samples.

Results

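Single blastomeres of 8-cell mouse embryos in which Dam-lamin B1 had marked the DNA at the nuclear lamina were set against blastomeres of the same stage that had received Dam alone. The members were the 41 cells titled as 8-cell Dam-lamin B1 single cells and the 4 titled as 8-cell Dam single cells, 45 of the 512 cells in the deposited table and of 556 samples in the series. A further blastomere titled Dam-lamin B1, replicate 9, was left out because its labels name both constructs. In both groups, mRNA for the construct fused to an auxin-inducible degron was injected into late 2-cell embryos at 46 to 48 h after hCG, at 20 ng/µl for Dam-lamin B1 and 40 ng/µl for Dam. The mixture also held 250 ng/µl TIR1 mRNA, the auxin receptor that triggers degradation of the degron, and 50 ng/µl membrane-EGFP mRNA as a marker. Auxin was present from injection and removed at 66 h, and the cells were taken at 72 to 74 h, so that both enzymes could methylate only late in the 8-cell stage. The strain label is a C57BL/6 female crossed with a CAST/EiJ male. The growth protocol names the mothers as F1 (CBAxC57BL/6J) females of 5 to 8 weeks. The labels name no embryo or mother, so several blastomeres may come from 1 embryo. The cells of a construct were therefore treated as 1 sample. No p-value was computed, and every spread below is a spread over cells. Dose and construct changed together and cannot be told apart.

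The nuclear lamina is a mesh of lamins under the inner nuclear membrane. Stretches of chromatin that lie against it, the lamina-associated domains (LADs), are in most cells large, poor in genes and transcriptionally quiet. In DamID the bacterial methyltransferase Dam methylates the adenine of GATC, and a Dam fused to lamin B1 does so where DNA touches the lamina. Dam without a partner methylates GATC wherever chromatin is accessible and so reports open chromatin. At the 8-cell stage the embryo has taken over its own transcription and its cells are about to compact, polarise and divide into inner cell mass (ICM) and trophectoderm (TE), the lineages of the fetus and of the placenta. The stage of the cells could not be checked with marker expression, since the assay reads DNA and not RNA.

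The GATC site is what both enzymes read, and 3 promoters show how it sits in bins at the 2 ends of the comparison. They are RefSeq sequences of GRCm38.p6, 250 bases before to 50 after the gene's start, printed 5′ to 3′ on the gene's strand with GATC, which reads the same on both strands, in capitals. They are the first in the order of the bins with the largest differences whose gene has a promoter there that holds the site. Calca, which encodes calcitonin and the neuropeptide CGRP, lies in a bin with a large excess of Dam-lamin B1, at chr7:114636308-114636607 on the minus strand with 1 site. Gatad2a, a subunit of the NuRD chromatin remodeller, at chr8:69996335-69996634 on the minus strand with 2 sites, and Oxt, the precursor of oxytocin, at chr2:130575919-130576218 on the plus strand with 1 site, lie in bins with a large excess of Dam.
Calca: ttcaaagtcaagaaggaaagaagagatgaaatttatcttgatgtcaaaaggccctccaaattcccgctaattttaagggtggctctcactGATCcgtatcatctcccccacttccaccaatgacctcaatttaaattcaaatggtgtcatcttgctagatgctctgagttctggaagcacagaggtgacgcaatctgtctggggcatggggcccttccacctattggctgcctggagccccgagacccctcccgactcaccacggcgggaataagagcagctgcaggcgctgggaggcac
Gatad2a: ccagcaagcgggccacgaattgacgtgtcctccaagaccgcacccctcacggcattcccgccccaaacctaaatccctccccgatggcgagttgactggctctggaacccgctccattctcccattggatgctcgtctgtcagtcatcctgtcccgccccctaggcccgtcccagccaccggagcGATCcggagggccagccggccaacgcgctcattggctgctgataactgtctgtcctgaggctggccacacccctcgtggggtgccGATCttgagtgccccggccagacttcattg
Oxt: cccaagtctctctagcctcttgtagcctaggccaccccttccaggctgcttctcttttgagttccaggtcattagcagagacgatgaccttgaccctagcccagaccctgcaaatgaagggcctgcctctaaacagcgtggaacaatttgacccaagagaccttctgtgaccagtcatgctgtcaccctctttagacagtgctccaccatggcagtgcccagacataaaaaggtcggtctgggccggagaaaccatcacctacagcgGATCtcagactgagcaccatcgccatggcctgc
Of 16238 promoters in the bins compared, 46.35% held at least 1 GATC. The share was 50.0% of 3028 promoters in bins higher with Dam-lamin B1 and 44.83% of 7759 in bins lower with it. The promoters differed more in composition. Their median GC content was 45% with 3 CG dinucleotides in the higher bins, and 60.0% with 19 CG in the lower bins. No source used here says how the authors' expected read number treats GATC density.

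The measurement is OE, the ratio of observed to expected reads in a 100 kb bin, given for 24022 autosomal bins of build mm10. An OE of 1 is the genome's average for that cell. The whole-read steps in the OE values put the depth at 28745 to 395799 reads (median 60163) in the Dam-lamin B1 cells, and at 53230, 39507, 29338 and 147989 reads in Dam replicates 4 to 7. A bin then held a median of 130 reads summed over the 41 Dam-lamin B1 cells and 6 summed over the 4 Dam cells. The Dam side therefore limits the precision of every bin. Blastomeres that stood apart were Dam-lamin B1 replicate 5, the lone cell of the 41 whose signal lay less in LADs than outside, and replicates 10 and 29. The profiles of these 2 cells correlated at r = 0.763 over 24022 bins, against at most 0.606 for the other pairs, and differed by no more than counting noise (chi-square of 0.990 per bin over 16525 bins). A pair of others, of replicate 22 with each of them, also stayed within counting noise, at r = 0.386 and 0.373, so the check does not settle whether replicates 10 and 29 are 1 cell. They are counted as separate cells, and values that count them once are given where they matter.

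The first question was whether Dam-lamin B1 marked LADs in these cells and Dam did not. The LAD contrast of a cell is the log2 of its mean OE in bins of which 50% or more lies in LADs of both lists that the authors deposited, for ICM and for TE, divided by its mean OE over bins that neither list touches. With Dam-lamin B1 the contrast ran from -0.21 in replicate 5 to 1.98 in replicate 44, with a median of 0.70. With Dam it was -1.85, -1.84, -2.26 and -1.98. All 41 Dam-lamin B1 cells lay above all 4 Dam cells, and the difference of the means was 2.80. It was 2.82 without replicate 5 and 2.80 with replicates 10 and 29 counted once.

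Both sides of the contrast differed. In bins of both LAD lists the mean OE was 1.22 ± 0.0916 with Dam-lamin B1 against 0.493 ± 0.0477 with Dam (SD over 41 and 4 cells). In bins of neither list it was 0.712 ± 0.149 with Dam-lamin B1 against 1.94 ± 0.0700 with Dam. Bins that only the TE list holds had 0.919 ± 0.0461 with Dam-lamin B1 against 0.647 ± 0.0170 with Dam, and all 41 cells lay above all 4 Dam cells. Bins of the ICM list alone had 0.951 ± 0.0593 and 0.799 ± 0.0316, and 39 of 41 cells lay above. In the bins of 1 list alone Dam-lamin B1 was thus close to the genome's average of 1, and Dam below it.

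**Figure D1:**
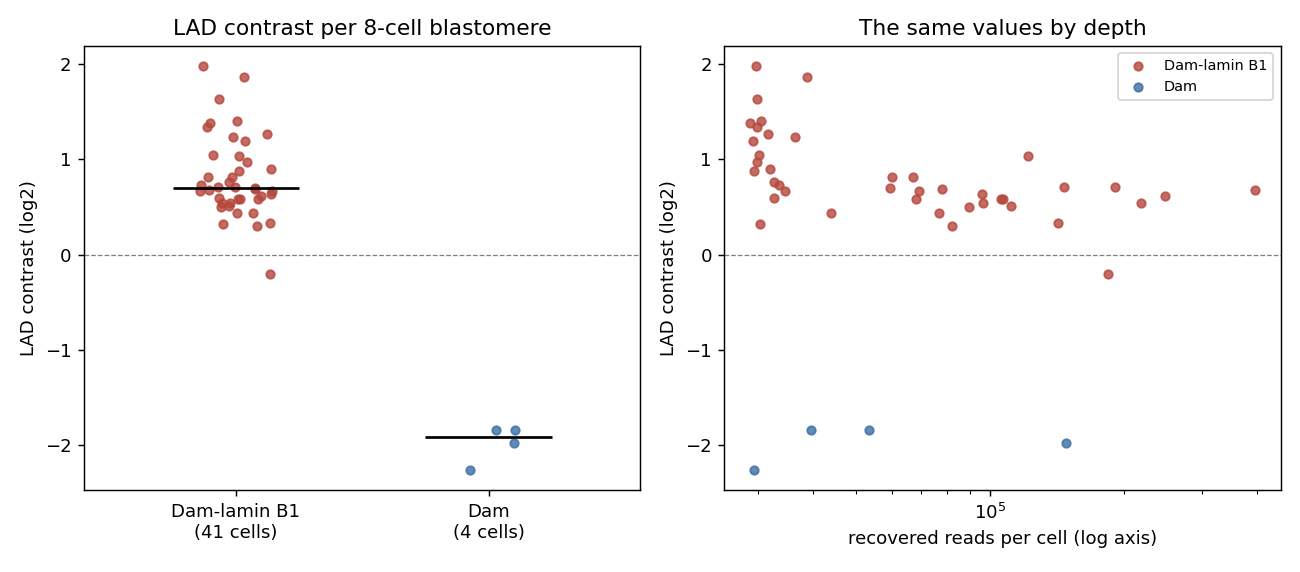
LAD contrast (log2) of each 8-cell blastomere by construct (left; points are cells and bars are medians) and against its recovered reads on a log axis (right). The 41 Dam-lamin B1 cells run from -0.21 to 1.98 and the 4 Dam cells from -2.26 to -1.84, so the constructs do not overlap, and the widest spread of Dam-lamin B1 cells is at the lowest depths.

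The contrast varied with depth among the Dam-lamin B1 cells. The 20 shallowest cells (28745 to 59513 reads) had a median of 1.008 and a range of 0.32 to 1.98, and the 21 deepest (60163 to 395799 reads) a median of 0.59 and a range of -0.21 to 1.03. Across the 41 cells the contrast correlated with log10 of the reads at r = -0.555, as a description over cells that may share embryos. Each cell thinned to the depth of the shallowest gave a difference between the constructs of 2.79. Why shallow cells had the higher contrast was not tested.

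Bin by bin, the difference was the log2 of the mean OE with Dam-lamin B1 over the mean OE with Dam, each with 0.25 added, in 23699 bins with a mean OE of at least 0.25 over the 45 cells. This scale understates the change of low bins. Bins past 2-fold were called. With Dam-lamin B1, 9076 bins were higher (38.3%) and 4589 lower (19.4%), which is 57.7% in either direction, and the median over all bins was 0.61. The Dam profile was the more uneven: 44.9% of bins had a mean Dam OE under 0.5 and 15.5% one of at least 2, while the shares with Dam-lamin B1 were 14.45% and 5.77%. Counting noise is larger in the Dam mean, at 6 reads in the median bin against 130, and its part in the unevenness was not tested. With each profile divided by its own median, 6746 bins were higher and 6391 lower, so 51.4% of calls were higher in place of 66.4%, and the median difference was 0.17. With 1 added to each mean OE in place of 0.25, 2471 bins were higher and 2836 lower, so the excess turned to lower bins (46.6% of calls higher). Of the higher bins, 2723 (30%) held no read in any Dam cell. They were all of the compared bins without a Dam read. The filter on mean OE lets such a bin in only through its Dam-lamin B1 signal, at a level already past 2-fold. Their call was thus fixed in advance. With these bins set to a floor of 3 Dam reads over the group, 7660 bins (32.3%) were higher.

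A stricter count asked that at least 33 of the 41 Dam-lamin B1 cells also lie beyond all 4 Dam cells, called apart below. This left 1352 bins apart and higher (5.7%) and 2153 apart and lower (9.08%). The higher count moved with depth, and with every cell thinned to the shallowest it was 347. All 41 cells lay below all 4 Dam cells in 471 of the lower bins and above them in 8 of the higher bins.

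The bins split by LAD class. Of 12013 bins in both LAD lists, 58.6% were higher and 1.26% lower, and of 7517 bins in neither, 5.79% were higher and 54.7% lower. Of 1352 bins apart and higher, 1223 lay in both lists and 17 in neither, and of 2153 apart and lower, 42 lay in both and 2010 in neither. The TE list alone gave 43.1% higher of 2221 bins, and the ICM list alone 32.96% of 1948. The exceptions were few but not absent: 435 bins outside both lists were higher with Dam-lamin B1 and 151 bins inside both were lower.

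Gene content went with the same split. Bins lower with Dam-lamin B1 held 2.11 protein-coding genes on average and 14.6% held none, whereas higher bins held 0.408 and 74.8% held none. Bins apart and lower held 2.51. Outside LADs the Dam signal climbed with the number of genes while the Dam-lamin B1 signal stayed between 0.671 and 0.785. Bins of neither list with 5 or more genes had a mean OE of 0.785 with Dam-lamin B1 against 3.75 with Dam, and those without a gene 0.764 and 1.22. In bins of both lists the mean OE by gene number ranged over 1.18 to 1.38 with Dam-lamin B1 and over 0.409 to 0.817 with Dam, with the lowest value of each in bins without a gene. Over 24022 bins, gene number correlated with the mean OE at r = -0.080 with Dam-lamin B1 and at 0.514 with Dam, and the mean profiles of the 2 constructs correlated with each other at -0.010. These bins share their cells and neighbour each other, so the correlations are descriptions.

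**Figure D2:**
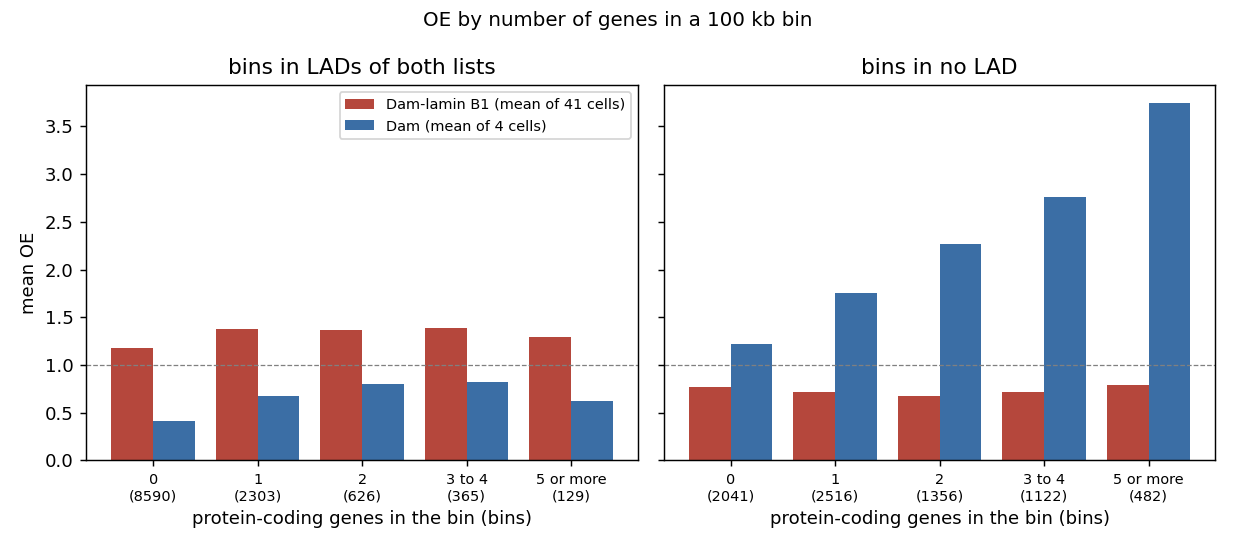
Mean OE (ratio of observed to expected reads) of 100 kb bins by their number of protein-coding genes, in bins of both LAD lists (left) and of neither (right), with the number of bins in brackets. Bars are means over 41 Dam-lamin B1 cells and 4 Dam cells, and outside LADs the Dam bars climb at every step, from 1.22 without a gene to 3.75 with 5 or more.

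Both profiles changed at LAD borders. At 65 places where at least 1 Mb in neither list meets at least 1 Mb in both, the mean OE 0.15 Mb outside was 0.737 with Dam-lamin B1 against 2.06 with Dam, and 0.15 Mb inside it was 1.53 with Dam-lamin B1 against 0.672 with Dam. With Dam-lamin B1 the change took place over the 2 bins at the border. With Dam the fall went on inside the domain, from 0.672 at 0.15 Mb to 0.444 at 0.65 Mb. The outer of the 2 border bins had 0.921 with Dam-lamin B1 against 1.53 with Dam, with 40 of 41 cells below all Dam cells. The inner one had 1.501 with Dam-lamin B1 against 0.941 with Dam, with 40 of 41 cells above. Inside the domain the Dam-lamin B1 signal was highest at 0.25 Mb, at 1.65, and lower at 0.95 Mb, at 1.22, while Dam stood at 0.723 and 0.523 at the same places.

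**Figure D3:**
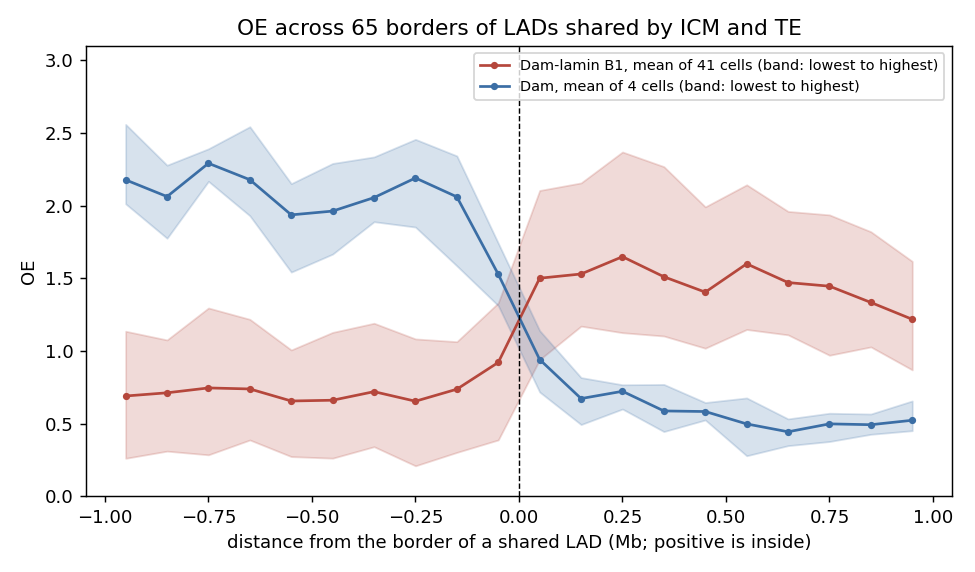
Mean OE at 65 borders of LADs shared by ICM and TE, by distance from the border in Mb (positive is inside). Lines are means over 41 Dam-lamin B1 and 4 Dam cells and bands run from the lowest to the highest cell, and the lines cross at the border: the bin inside has 1.501 with Dam-lamin B1 against 0.941 with Dam, and the bin outside 0.921 and 1.53.

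Lower bins joined into longer stretches than higher bins. The 4589 lower bins formed 1329 unbroken runs, of which 97 reached 1 Mb and held 36.4% of the bins. The 9076 higher bins formed 3630 runs, and 80 of at least 1 Mb held 10.8% of them. A run breaks at any bin short of 2-fold, and higher bins held a median of 2 Dam reads where lower ones held 29, so run lengths also carry counting noise. The longest lower run was 4.8 Mb with 83 genes at chr4:135100001-139900000, which holds Id3, E2f2, Kdm1a, Wnt4 and Cdc42. Lower runs of 3.9 Mb with 76 genes at chr2:154200001-158100000 and of 3.8 Mb with 69 genes at chr8:119800001-123600000 followed. The longest higher run was 2.3 Mb at chr9:111300001-113600000 and held 4 genes, Trank1, Dclk3, Stac and Arpp21. Its mean OE was 1.30 with Dam-lamin B1 (range 0.581 to 3.095), and 0.234, 0.0496, 0.106 and 0.272 in the Dam cells. All 23 of its bins lay in both LAD lists. A 2.2 Mb run at chr11:110500001-112700000 around the potassium channel genes Kcnj16 and Kcnj2 had 1.69 with Dam-lamin B1 (range 0.807 to 2.62) and 0.201, 0.360, 0.144 and 0.205 with Dam.

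Chromosomes differed as wholes. On chromosome 1, with 0.615 genes per bin, the mean OE was 1.13 with Dam-lamin B1 against 0.8287 with Dam, and 41 of 41 cells lay above all 4 Dam cells. Chromosome 13 had 1.06 and 0.767, with 39 cells above. Chromosome 11, with 1.35 genes per bin, had 1.05 with Dam-lamin B1 (range 0.548 to 1.43) and 1.58, 1.62, 1.88 and 1.76 with Dam, and all 41 cells lay below. There 27.9% of bins were higher and 35.5% lower. Chromosome 7, the richest in genes at 1.43 per bin, was no extreme, at 1.05 with Dam-lamin B1 against 1.11 with Dam and with 4 cells above and 15 below, and it also carries large clusters of receptor genes.

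The 10 bins apart and furthest above Dam had no Dam read at all. Their ratios are given as at least a fold, against a floor of 3 Dam reads over the group. As the bins were picked from 23699 partly for that lack of reads, these ratios may still be too high. A bin at chr3:6000001-6100000 without a gene had an OE of 0.496 to 4.46 (median 3.01) with Dam-lamin B1 and 0 in all 4 Dam cells, and was at least 11.1-fold higher from pooled reads against a floor of 3 Dam reads over the group. All 41 cells lay above. The bin of Cd46, a membrane protein of the sperm acrosome in mice, at chr1:195000001-195100000, had a median of 2.47 with Dam-lamin B1 (range 0 to 8.36) and was at least 7.82-fold higher, with 40 cells above. The bin of Tmprss11c, a transmembrane serine protease, at chr5:86200001-86300000 was at least 7.28-fold higher, with 38 cells above. The Calca bin at chr7:114600001-114700000, whose promoter is printed above, had a median of 2.44 with Dam-lamin B1 (range 0 to 5.70), no read with Dam and a ratio of at least 9.65-fold, with 38 cells above. The other 6 held no gene midpoint, lay on chromosomes 3, 13, 14 and 15 and were at least 5.61-fold to 9.72-fold higher. Of all 10, 9 lay in both LAD lists and the bin at chr3:7100001-7200000 in the TE list only.

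The 10 bins apart and furthest below Dam all lay in neither LAD list, and 9 of them held genes. The bin of Tssk6, a testis kinase, and Gatad2a at chr8:69900001-70000000 had an OE of 0 to 1.67 (median 0) with Dam-lamin B1 and 6.16, 2.56, 7.77 and 7.58 with Dam. Its log2 difference was -3.34, and all 41 cells lay below. The bin of Oxt, with Ptpra, Mrps26 and Avp, at chr2:130500001-130600000 had 0 to 1.44 (median 0) with Dam-lamin B1 and 5.63, 4.67, 5.52 and 1.89 with Dam, a difference of -3.29 with all 41 cells below. The largest difference, -3.40, was in the bin of Septin9, a cytoskeletal GTPase, at chr11:117200001-117300000. It had 0 to 1.72 with Dam-lamin B1 and 3.65, 8.61, 7.47 and 1.33 with Dam, and 37 of 41 cells lay below. Bins of Mrgprf and Mrgprd, of Galnt6 and Slc4a8, of Iqgap3 and Mef2d, of Csf3, Med24 and Thra, and of others lay between -3.40 and -3.21, with 39 to 41 cells below.

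Gene families were read next, through the bins that hold the midpoints of their genes. A list's count stands beside the background of 38.3% of bins higher and 19.4% lower, and its median beside 0.61. Bins of both LAD lists as a class had 58.6% higher, 1.26% lower and a median of 1.19. A list that lies mostly in LADs and has values near these does not stand out from other LAD bins. Bins of neither list had 5.79% higher, 54.7% lower and a median of -1.14. Those with 3 to 4 genes had 77.2% lower and a median of -1.66. Those with 5 or more genes had 88.8% lower and a median of -1.98. A list that lies mostly outside LADs and is near these values does not stand out from other such bins. Of the odorant receptor bins below, 269 lay in both lists, and of the vomeronasal ones 147. Families used in 1 adult tissue and silent in most others came first. Odorant receptors, expressed 1 per olfactory neuron, filled 337 bins, of which 203 were higher and 16 lower with a median of 1.21. Their mean OE was 1.27 at the median Dam-lamin B1 cell (range 0.949 to 1.58), and 0.597, 0.602, 0.531 and 0.577 in the Dam cells, with all 41 cells above all 4. Vomeronasal receptors, which detect pheromones, gave 134 higher and 4 lower of 183 bins, with a median of 1.43 and again all 41 cells above. Both families hold near-identical copies, between which short reads may be split or lost. The highest vomeronasal bin, of Vmn1r138 and Vmn1r139, owed its mean of 8.02 to 3 cells, with up to 113 in 1 of them, while the other 38 Dam-lamin B1 cells and all Dam cells had 0.

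Further families used in adult tissues were mostly higher too. Prolactin family hormones of the placenta and pituitary gave 11 higher and none lower of 14 bins with a median of 1.52, and in their mean OE 36 of 41 cells lay above all 4 Dam cells and 1 below. That mean was 0.741 with Dam-lamin B1, below the genome's average of 1, against 0.226 with Dam. Of the 14 bins, 7 held no Dam read and none was apart. Liver enzymes of the cytochrome P450 families 2 and 3 gave 27 higher and 5 lower of 45 with 1.13, and 39 cells above. UDP glucuronosyltransferases gave 5 higher and none lower of 7, with 1.38 and 31 cells above. Long neuronal genes, such as the synapse genes Cntnap2 and Nrxn3, gave 12 higher and none lower of 22 with 1.09, and all 41 cells lay above all 4 Dam cells in their mean. Here too the mean OE with Dam-lamin B1 was below 1, at 0.884 against 0.274 with Dam. Cntnap2 itself had an OE of 0 to 3.91 (median 0.986) with Dam-lamin B1 and 0, 0, 0 and 0.417 with Dam. That rests on 2 Dam reads, for a pooled ratio of 5.13 with a 95% counting interval of 1.39 to 42.8. Sox5, a developmental transcription factor in a long gene, had 0 to 6.24 (median 1.38) with Dam-lamin B1 and 0, 0, 0 and 0.329 with Dam, also from 2 reads, for a pooled ratio of 7.14 (1.95 to 59.4) and 37 cells above. With no-read Dam bins at 3 reads the medians of the prolactin and long neuronal lists were 0.75 each, short of 2-fold. With each profile divided by its own median, the vomeronasal and prolactin medians stayed past 2-fold at 1.196 and 1.51. Those of the odorant receptor, cytochrome P450, glucuronosyltransferase and long neuronal lists were 0.80, 0.69, 0.97 and 0.74 against 0.17 for all bins. With 1 added to each mean OE, no list median was past 2-fold higher, and 5 were past 2-fold lower.

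Some other families used in adult tissues did not separate. Keratins gave 11 higher and 5 lower of 33 bins (median 0.51), defensins 8 and 5 of 21 (0.54), clustered protocadherins 3 and 0 of 8 (0.64) and hepatocyte genes 4 and 1 of 10 (0.34). With each profile divided by its own median, the hepatocyte list was at -0.17, the one list of 24 to change sign. In their mean OE, 8, 6, 4 and 3 of 41 cells lay above all Dam cells, and 8, 3, 7 and 7 below all of them. Keratins sit in gene-rich clusters, of which 16 of 33 bins lay in neither LAD list. The Hox clusters, repressed by Polycomb proteins in early embryos, went with Dam: 6 of 9 bins were lower and none higher (median -1.04), all 9 lay in neither list and all 41 cells lay below. Bins of neither list as a class had 54.7% lower and a median of -1.14. The bin of Hoxa5 to Hoxa13 had 0 to 3.86 (median 0.425) with Dam-lamin B1 and 2.21, 1.19, 1.61 and 0.322 with Dam. The globin clusters, both silent outside red blood cells, took opposite sides in their difference from Dam. The β-globin bin of Hbb-bt lies in both LAD lists and had 0 to 5.07 (median 0.228) with Dam-lamin B1 and no Dam read, at least 2.75-fold higher with 22 cells above. The α-globin bin of Hba-a1 lies in neither list among genes of general use and had 0 to 2.34 (median 0.709) with Dam-lamin B1 and 2.20, 2.96, 3.20 and 0.959 with Dam. Its difference was -1.20 with 24 cells below. With Dam-lamin B1 alone the order was the reverse. The β-globin bin had a mean OE of 0.682, with an OE of at least 1 in 11 of 41 cells. The α-globin bin had 0.873, with 17 of 41 cells. The liver genes Alb and Afp share a bin at 0.76, with 0 to 11.4 (median 1.30) with Dam-lamin B1 and 0, 1.73, 0.779 and 0.933 with Dam. Zinc finger genes of the Zfp series, many of them KRAB repressors of transposons, were mixed, with 47 higher and 113 lower of 282 bins and a median of -0.56.

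**Figure D4:**
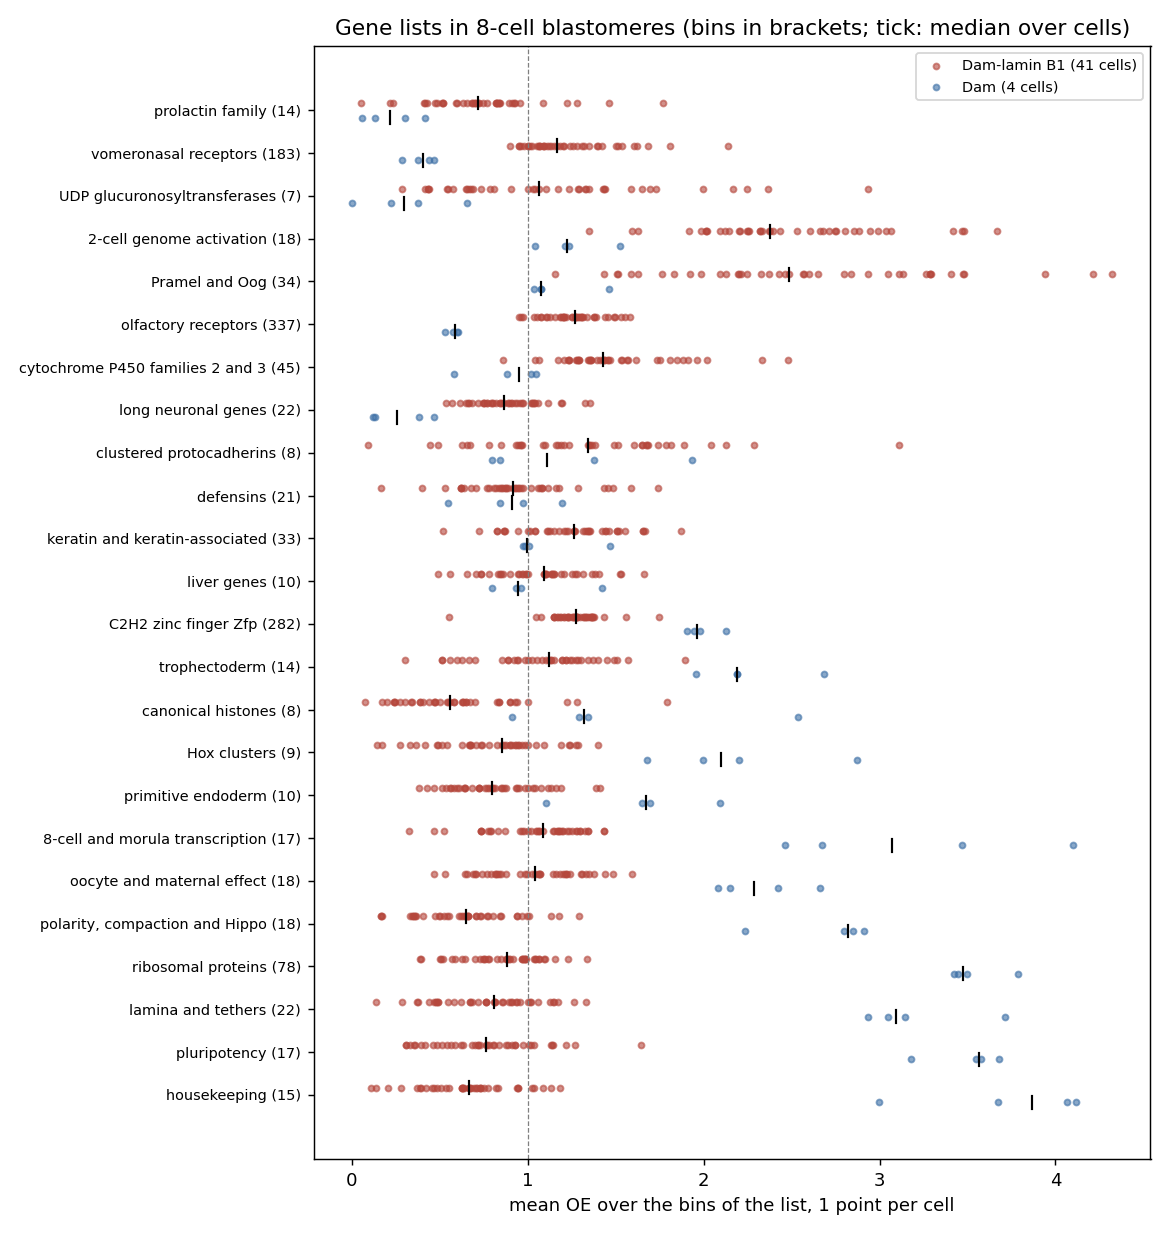
Mean OE over the bins of each of 24 gene lists, 1 point per 8-cell blastomere, with Dam-lamin B1 above Dam in each row and a tick at the median over cells. Lists run from the highest to the lowest median difference, from prolactin genes, with a Dam-lamin B1 median of 0.719 and Dam cells at 0.0575 to 0.414, to housekeeping genes, with 0.667 and 3.00 to 4.12.

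Gene clusters that the embryo transcribes before this stage were higher with Dam-lamin B1. The Pramel and Oog genes, in clusters on chromosomes 4, 5 and 12 that are active in oocytes and cleaving embryos, gave 20 higher and 1 lower of 34 bins, with a median of 1.23. Of the list's bins, 32 lay in both LAD lists, a class with 58.6% higher and a median of 1.19. Their mean OE was 1.15 to 4.32 (median 2.49) with Dam-lamin B1 and 1.04, 1.08, 1.07 and 1.46 with Dam, and 39 of 41 cells lay above. In the chromosome 4 cluster, the bin of Pramel21, Pramel22 and Pramel23 at chr4:143600001-143700000 had 0.756 to 6.66 (median 3.18) with Dam-lamin B1 and 0, 0, 0.748 and 0.598 with Dam. All 41 cells lay above, with a log2 difference of 2.62. In the next 3 bins Pramel24 and Pramel25 (2.03), Pramel26, Pramel27 and Pramel11 (1.81) and Pramel16 and Pramel14 (2.18) were higher with 36 to 40 cells above. Pramel4, in the bin after these, was lower at -1.11, with 0 to 4.83 (median 1.80) with Dam-lamin B1 and 2.90, 3.92, 3.97 and 4.76 with Dam. The chromosome 5 cluster was poorly covered: the Pramel38 bin had 3.40 on average from 14 of 41 cells, with none in the Dam cells, and is no more than a count of reads in few cells. With no-read Dam bins at 3 reads the list's median was 0.46, below that of all bins at 0.52. With each profile divided by its own median it was 0.78, as was that of the next list.

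Genes of 2-cell genome activation, the burst of transcription that precedes this stage, gave 10 higher and 2 lower of 18 bins with a median of 1.23 (0.94 with no-read Dam bins at 3 reads). Their mean OE was 1.35 to 3.67 (median 2.38) with Dam-lamin B1 and 1.04, 1.24, 1.21 and 1.52 with Dam, with 40 of 41 cells above. Tdpoz3, of a family of BTB-domain proteins of early embryos, had 0 to 13.9 (median 4.38) with Dam-lamin B1 and 1.16, 0, 1.06 and 0.422 with Dam, a difference of 2.37 with 39 cells above. Usp17lc, of a family of deubiquitinases, had 0 to 8.63 (median 2.71) with Dam-lamin B1 and 0, 1.48, 0 and 0 with Dam, from 2 reads, for a pooled ratio of 12.7 (3.5 to 105.6) and 32 cells above. Zscan4f, of a zinc finger family that marks the 2-cell state, had 0 to 7.76 (median 1.28) with Dam-lamin B1 and no read with Dam, at least 2.88-fold higher, with 26 cells above. Zscan4c had 0 to 5.99 (median 1.14) with Dam-lamin B1 and 0, 1.85, 0 and 0 with Dam, again from 2 reads, with 14 cells above and a ratio of 5.52 (1.5 to 46.0). Duxf3, a copy of the Dux homeobox gene that drives 2-cell genes, did not separate at 0.17, with 4.11 at the median Dam-lamin B1 cell and 5.71, 6.42, 0.867 and 2.08 with Dam. Arg2, which stands alone and not in a cluster, was lower at -1.85. These are multi-copy clusters for the most part, and Dam-lamin B1 cells of this stage have OE far above 1 in them. No source used here says how reads that match several copies were placed.

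Genes in use at the 8-cell stage were on the other side. So were gene-rich bins outside LADs as a class, with the shares given above. All 15 bins of housekeeping genes were lower, with a median of -2.12. Their mean OE was 0.109 to 1.18 (median 0.667) with Dam-lamin B1 and 4.12, 3.67, 3.00 and 4.06 with Dam. The bin of Actb, which encodes β-actin, had 0 to 3.53 (median 0.702) with Dam-lamin B1 and 5.91, 8.48, 4.04 and 11.3 with Dam. Its difference was -2.74 with all 41 cells below. The bin of the chaperone gene Hsp90ab1 had 0 to 2.98 (median 0.491) and 9.41, 4.84, 12.2 and 3.91 with Dam, a difference of -3.20 with all 41 cells below. Gapdh was lower on average at -1.49, but Dam replicate 5 had no read there, so no cell lay below all 4. Ribosomal protein genes gave 59 lower and 1 higher of 78 bins with a median of -1.79. The exception was Rpl39l, a testis form of a ribosomal protein, whose bin had 0 to 4.99 (median 2.23) with Dam-lamin B1 and 0, 0.985, 0 and 0 with Dam, from 2 reads, for a pooled ratio of 15.3 (95% counting interval 4.21 to 126.9) and 36 cells above. Canonical histone clusters were lower in 4 and higher in 1 of 8 bins.

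Regulators of the lineages that the 8-cell embryo is about to form differed among themselves. Pluripotency genes were lower in 14 of 17 bins and higher in none (median -2.03), with all 41 cells below in their mean. Pou5f1, the Oct4 gene, had 0 to 2.63 (median 0.631) with Dam-lamin B1 and 2.04, 2.76, 4.47 and 5.06 with Dam, with 40 cells below. Nanog had 0 to 3.48 (median 0.690) and 5.13, 4.797, 2.88 and 5.17 with Dam, a difference of -2.11 with 40 cells below, although its bin lies in the ICM LAD list alone. Dppa3, which encodes a maternal protein that protects DNA methylation in the zygote, lies in the next bin at -2.71. Sox2 had 0 to 3.26 (median 0.414) and 2.85, 1.28, 1.73 and 1.73, with 35 cells below.

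Trophectoderm genes were lower in 4 of 14 bins with a median of -0.79, beside a background of 19.4% of bins. In their mean OE, at 1.07 with Dam-lamin B1 against 2.25 with Dam, all 41 cells lay below all 4 Dam cells. Tead4, the transcription factor that starts the trophectoderm programme, had 0 to 2.89 (median 0.741) with Dam-lamin B1 and 4.24, 3.43, 6.18 and 3.70 with Dam, a difference of -1.98 with 41 cells below. Hand1, which acts later in the placenta, was lower at -2.25, with 41 cells below. Cdx2 and Gata3, transcription factors that set up the trophectoderm, did not pass 2-fold, at -0.87 and -0.84. The Cdx2 bin had 0 to 2.03 (median 0.497) with Dam-lamin B1 and 2.87, 0.554, 0 and 1.195 with Dam, so no cell lay below all 4. Elf5, a later trophoblast factor, had 0 to 4.00 (median 1.06) with Dam-lamin B1 and 0.772, 0, 0.704 and 0.281 with Dam, at 0.97 with 24 cells above. Primitive endoderm genes were lower in 5 and higher in 2 of 10 bins. Gata4 was lower at -2.80, with all 41 cells below, and Gata6 at -1.19, with 9 below. Sox17 and Dab2, which act in the same lineage, were higher with 22 and 25 cells above, Sox17 at 1.14 and Dab2, without a Dam read, at least 1.98-fold.

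Genes of compaction, polarity and Hippo signalling, which the 8-cell embryo uses to flatten its cells and give them an outer side, were lower in 16 of 18 bins and higher in none (median -1.60). Scrib, a basolateral polarity protein, had 0 to 2.72 (median 0) with Dam-lamin B1 and 2.25, 8.501, 13.1 and 3.27 with Dam, a difference of -3.15 with 40 cells below. Nf2 (-2.79) and Rhoa (-2.59), a Hippo regulator and a GTPase of the cytoskeleton, were lower with 41 cells below each. Cdh1, the E-cadherin gene, was lower at -1.25 with 0 to 2.33 (median 0.761) and 0.882, 0.595, 3.22 and 4.17 with Dam, and 16 cells below. Pard3, whose bin lies in both LAD lists, showed no difference at 0.04. Genes known to be transcribed in 8-cell and morula embryos were lower in 9 and higher in 2 of 17 bins (median -1.18), led by the tight junction gene Cldn4 at -2.86, with Ldhb at 1.13 and Upp1 at 1.007 the 2 exceptions. Of the 17 bins, 12 lay in neither LAD list, a class with 54.7% lower and a median of -1.14. The list thus does not stand out from that class. Oocyte genes were lower in 10 and higher in 3 of 18 bins (median -1.23). Gdf9, a growth factor of oocytes, was lower at -1.94 with 41 cells below, and Kit, the receptor of the oocyte's growth signal, was higher with 27 above, from 2 Dam reads, for a pooled ratio of 11.0 (3.03 to 91.6).

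Bins of the genes that build the lamina were among the lower ones. Of 22 bins of lamins, their receptors and tethering proteins, 19 were lower and none higher (median -1.80), and all 41 cells lay below all 4 Dam cells in their mean. Of the 22 bins, 20 lay in neither LAD list. Bins of that class had medians of -1.66 with 3 to 4 genes and -1.98 with 5 or more. The bin of Lmnb1, which encodes lamin B1, had 0 to 2.99 (median 0.573) with Dam-lamin B1 and 4.24, 1.72, 3.86 and 4.01 with Dam, a difference of -2.004 with 38 cells below. Sun1, a protein of the inner nuclear membrane, was lower at -2.47 and Lmna, the A-type lamin gene, at -2.44. The 3 bins short of 2-fold included Syne1, a nesprin gene in both LAD lists, at 0.74, and Tmpo, the gene of the LAP2 proteins, at -0.46. The constructs were injected as mRNA, so these are the embryo's own loci. Genes named in the family paragraphs beyond the extremes of each list and the fixed markers were chosen after their values were seen.

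Contact was then counted cell by cell, as an OE of at least 1 in a bin. A bin was in contact in 38.6% of the Dam-lamin B1 cells on average, 46.1% in bins of both LAD lists and 28.1% in bins of neither. Contact in at least 33 of 41 cells was found in 799 bins (3.37% of those compared), of which 723 lay in both lists. At 8 or fewer of 41 cells there were 5045 bins, of which 2878 lay in neither. These counts move with depth, and with every cell thinned to the shallowest 278 bins were in contact in at least 33 cells and 6437 in 8 or fewer. The median bin held 130 reads summed over the 41 cells, so a call in 1 cell turns on few reads. With Dam an OE of at least 1 marks accessible chromatin and not contact, and 2535 bins reached it in all 4 cells and 8334 in none. In 182 bins at least 33 Dam-lamin B1 cells and no Dam cell had an OE of at least 1, and in 736 bins 8 or fewer Dam-lamin B1 cells and all 4 Dam cells did. Of the 12013 bins in both LAD lists, 10055 were in contact in 9 to 32 of the 41 cells, and so were 17855 of all 23699 bins. How much of this variation between cells is counting noise was not tested.

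The 5 bins with the most contact included some that both enzymes marked. The bin of Sfi1, a centrosome protein gene near the centromeric end of chromosome 11, at chr11:3100001-3200000, had 15.0 to 57.1 (median 32.98) with Dam-lamin B1 and 32.6, 44.7, 31.7 and 27.3 with Dam, a difference of -0.08. Lamina contact in this bin cannot be told apart from a gathering of reads that both constructs share. A bin at chr1:24600001-24700000 also differed by less than 2-fold, at 0.46, with 2.24 to 13.6 (median 7.76) and 5.62, 6.95, 7.68 and 3.07. The Tdpoz4 bin had 1.27 to 16.1 (median 7.45) with Dam-lamin B1 and 2.14, 2.89, 2.60 and 2.08 with Dam, with 36 cells above. Bins at chr2:177500001-177600000 and chr4:146000001-146100000 had 40 and 34 cells above. Among the bins with the least contact, that of Cep95 and Smurf2, a ubiquitin ligase gene, at chr11:106800001-106900000, was in contact in 0 of 41 cells. It had 0 to 0.826 (median 0) with Dam-lamin B1 and 1.78, 1.80, 3.24 and 0.969 with Dam.

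Single Dam-lamin B1 cells correlated less with each other than single Dam cells did. Over 24022 bins, the profiles of 820 pairs of Dam-lamin B1 cells correlated at r = 0.254 on average (range -0.004 to 0.763), those of 6 pairs of Dam cells at 0.505 (0.450 to 0.567), and 164 pairs of 1 cell of each construct at 0.004. Replicate 44, which had the highest LAD contrast and 29628 reads, was the least like the others, at a mean r of 0.118. Replicates 24 and 27 came closest after replicates 10 and 29, at 0.606. Depth sets part of such an r, and its share was not tested.

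The same contrast at earlier stages was read with the stage's own Dam cells. Zygotes (19 Dam-lamin B1 and 46 Dam cells, at 5 and 20 ng/µl of mRNA) gave 4179 higher (17.5%) and 2331 lower (9.76%) bins. Blastomeres of 2-cell embryos (47 and 45 cells, at 10 and 40 ng/µl) gave 2163 higher (9.14%) and 4218 lower (17.8%), and those of 8-cell embryos 9076 (38.3%) and 4589 (19.4%). The difference in mean LAD contrast was 1.38 in zygotes, 1.69 at the 2-cell and 2.80 at the 8-cell stage. The order of the difference was that of the Dam cells: the median contrast of Dam-lamin B1 cells was 0.57, 0.84 and 0.70 in that order of stages, and that of Dam cells -0.73, -0.96 and -1.91. The SD over bins of the mean Dam profile was 0.498, 0.609 and 1.18, and that of Dam-lamin B1 0.557, 0.610 and 0.620. The 8-cell Dam profile is a mean of 4 cells, and the part of counting noise in its SD was not tested. Doses and cell numbers differ between stages, and no difference between stages was tested.

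Of the 9076 bins higher at the 8-cell stage, 1327 (14.6%) were also higher at the 2-cell stage, where they made up 61.4% of the higher bins. For lower bins the overlap was 3081, which is 67.1% of the 8-cell and 73.0% of the 2-cell ones. With zygotes, 2661 higher bins (29.3% and 63.7%) and 1141 lower bins (24.9% and 48.95%) were shared. These shares stand beside those over all bins, of which 38.3% were higher and 19.4% lower at the 8-cell stage. The shares over all bins were 9.14% and 17.8% at the 2-cell stage, and 17.5% and 9.76% in zygotes. Over bins, the Dam profiles of the 8-cell stage correlated at r = 0.764 with 2-cell and 0.672 with zygote Dam, and the Dam-lamin B1 profiles at 0.449 and 0.255.

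The early embryonic clusters changed place between the stages. The mean OE of Pramel and Oog bins was 1.04 with Dam-lamin B1 against 0.970 with Dam in zygotes, 0.701 and 1.32 in 2-cell embryos, and 2.58 and 1.16 in 8-cell embryos. In 2-cell embryos none of 34 bins was higher and 11 were lower, against 20 and 1 at the 8-cell stage. The lowest 8-cell Dam-lamin B1 cell, at 1.15, lay above the 2-cell Dam-lamin B1 median of 0.667, and the ranges overlapped (0.170 to 1.61 in 2-cell embryos). Genes of 2-cell genome activation had a mean OE of 1.05 with Dam-lamin B1 and 1.35 with Dam in zygotes, 1.02 and 1.58 in 2-cell embryos, and 2.49 and 1.25 in 8-cell embryos. Pluripotency genes were below the median of all bins at each stage, at -0.60 in zygotes, -1.10 at the 2-cell and -2.64 at the 8-cell stage. Olfactory receptors stood at 1.03, -0.06 and 0.59 on the same scale.

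**Figure D5:**
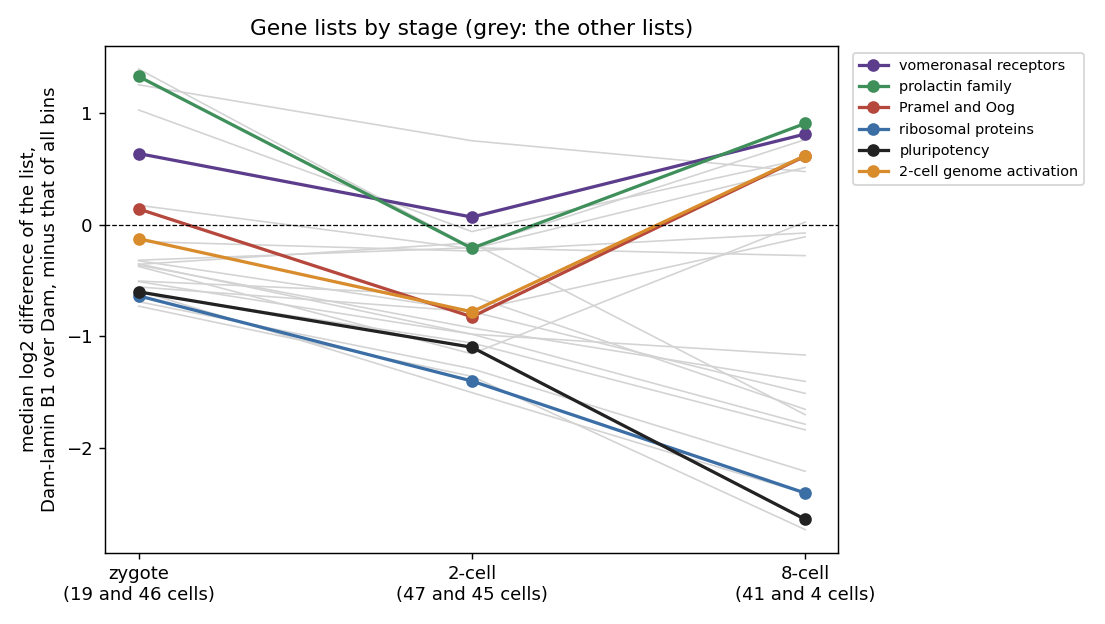
Median log2 difference (Dam-lamin B1 over Dam) of each gene list minus that of all bins, in zygotes, 2-cell and 8-cell blastomeres, with the cells of each construct in brackets and lists without a colour in grey. Pramel and Oog and 2-cell genome activation lists stand at -0.83 and -0.78 at the 2-cell stage and at 0.62 and 0.62 at the 8-cell stage, while ribosomal protein and pluripotency lists descend to -2.41 and -2.64. With no-read Dam bins at 3 reads the 8-cell Pramel and Oog median, 0.46, is below the 0.52 of all bins.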

How the data were processed

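Single-cell DamID libraries were read from the deposited table, whose values are the authors' ratio of observed to expected reads per 100 kb bin (OE), and from the LAD intervals that the authors deposited for ICM and TE. Per the submitters' processing notes, cutadapt and BWA 0.7.12 were used with build mm10. No source used here gives their settings, or how the expected number and the LADs were made. Of 24639 autosomal bins, 617 without a value were left out, and the X and Y chromosomes were not analysed here. Reads were recovered as the smallest whole-number steps of OE in 23954 bins (tolerance 0.02 reads). They are estimates of depth, and as PCR copies may be counted, intervals cover counting error only.

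Cells took their group from their titles, as 41 Dam-lamin B1 and 4 Dam cells. With no embryo named, no test was made. Differences are log2 with 0.25 added to mean OE, filtered at a mean OE of 0.25 and called at 2-fold. Contact is an OE of at least 1. Bins were given genes by the midpoints of 20527 of 21900 protein-coding genes in RefSeq (GRCm38.p6). Named bins were the 10 largest differences each way among bins apart, the marker genes, the extremes of each of 24 gene lists and the 5 bins with most and with least contact, with a spacing of 1 Mb for the first and the last. Members and lists were chosen with earlier results of these data known. Alternatives were pseudocounts, filters, fold, scaling, depth, summary over cells, window and cells left out. The code was tested on simulated data. Python 3.11.15, numpy 2.4.6, pandas 2.3.3 and scipy 1.17.1 were used.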

Additional observations from a re-analysis of the deposited data

Results flagged for a closer look

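The 4 Dam cells were checked for a cell far from the others in 87 values, and in 8 the gap of 1 cell to its nearest neighbour, as a share of their whole range, was above Dixon's critical value at 95%. Chance flags about 1 in 20 such checks. Dam replicate 4 stood apart in the mean OE of bins of the ICM list alone (0.933, at 0.846 against 0.781 to 0.785) and in the polarity list (0.834, at 2.23 against 2.80 to 2.91). Dam replicate 6 stood apart in the keratin list (0.928, at 1.47), and in the bins of Nanog (0.836, at 2.88), Dppa3 (0.852, at 2.12) and Arg2 (0.878, at 7.00). Dam replicate 7 stood apart in the Pramel and Oog list (0.906, at 1.46) and Dam replicate 5 in the bin of Lmnb1 (0.851, at 1.72).

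The Pramel and Oog list lay above the median of all bins at the 8-cell stage and below it at the 2-cell stage, 1.44 apart on the log2 scale. With no-read Dam bins at 3 reads its 8-cell median, 0.46, was below the 0.52 of all bins. The list of 2-cell genome activation also lay above the median of all bins at the 8-cell stage and below it at the 2-cell stage, 1.40 apart. Neither difference between stages was tested. The blastomere titled Dam-lamin B1 that also carries a Dam label, replicate 9, had a LAD contrast of 0.71 (0.706), a value inside the range of the 41 Dam-lamin B1 cells and above all 4 Dam cells. It entered no comparison.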

How the results depend on the processing

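No paired analysis was possible because no result comes from a test, the labels name no embryo, and the numbers that both constructs share only name cells. All 41 Dam-lamin B1 cells lay above all 4 Dam cells in the LAD contrast under each LAD definition, measure and depth tried, and the difference was 2.28 with the ICM list alone. Leaving out 1 Dam cell at a time gave 2.70 to 2.84, 8809 to 9606 bins higher, 4511 to 4571 lower, 15 to 18 of 24 lists past 2-fold, and 36 to 38 named bins higher and 46 to 48 lower. Leaving out Dam-lamin B1 replicate 5, an alternative added after seeing the data as were the next 2, gave 2.82, 9077 and 4626 bins, and 1404 and 2230 apart. Replicates 10 and 29 counted as 1 cell gave 2.80, 9082 and 4602 bins. With no-read Dam bins at 3 reads the Pramel38 bin was at -0.62 in place of 3.87, the lone reversal among the named bins. Over all bins, 64 higher ones became lower under it.

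A pseudocount of 1 gave 2471 bins higher, 2836 lower and 5 lists past 2-fold, all lower, in place of 17, of which 8 were higher. A 3-fold call gave 4875 and 2671. In windows of 1 Mb, 731 of 2402 were higher and 380 lower. Bins apart and higher numbered 347 with cells thinned, 334 at 37 or more cells and 6441 at 21 or more. Contact in 33 or more cells was found in 59 bins at an OE of 2 and in 278 with cells thinned, and contact in 8 or fewer cells in 17555 at an OE of 2. The cause was not tested, beyond the stricter settings that by construction call fewer. Of list medians, 291 of the alternatives stayed within the spread and 59 moved, and of named bins 1230 stayed and 67 moved. Pooling by reads turned the sign of the defensin list. The depth of the 4 Dam cells, 6 reads in the median bin, limits single bins.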
